A study of Mus musculus with 8 samples.

Results

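The mitochondrial ribosome was examined in the retina of mice lacking Lpcat1, an acyltransferase that remodels phosphatidylcholine in membranes and in lung surfactant. Its nuclear-encoded protein genes were taken as all probes whose RefSeq transcript belongs to a gene with a symbol starting Mrps or Mrpl and a number. This gave 99 of 55681 probes and 78 genes, 29 named for the small subunit (Mrps) and 49 for the large subunit (Mrpl). These were all 78 protein-coding genes that the RefSeq table lists under such symbols. A gene with several probes was represented by the brightest one, and 77 of the 78 genes passed the detection filter.

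The mitochondrial ribosome translates the few proteins encoded by mitochondrial DNA, all of them core subunits of the respiratory chain and ATP synthase. Its RNAs come from mitochondrial DNA, whereas its proteins are made in the cytosol from nuclear genes and imported. Many of these proteins have bacterial counterparts and others are found only in mitochondrial ribosomes. The small subunit reads the messenger RNA, and the large subunit forms the peptide bond and sits against the inner membrane. Photoreceptors are packed with mitochondria in their inner segments and are among the most energy-demanding cells of the body.

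Whole retina RNA came from 4 wildtype (WT) samples and from 4 samples of Lpcat1 knockout (KO) mice. The animals are labelled C57BL/6, were all 2 weeks old and carry no treatment in the labels. The knockout is global, so every retinal cell type lacks the gene, and per the study's methods the line had been crossed to lose homozygosity for the rd8 allele of Crb1, itself a cause of retinal degeneration. The labels do not say that each sample came from a separate animal, so p-values measure only the spread between these samples. Each sample was hybridised to 1 Agilent array, the 8 arrays lay on 1 slide, and the 4 WT arrays filled one row of it and the 4 KO arrays the other, so that row and genotype cannot be told apart. Levels are log2 signals after a shift of each array to its own 75th percentile, differences are KO minus WT on this log2 scale, and levels of different genes are not compared because probes differ in brightness. In whole tissue, fewer cells of a type and less RNA per cell cannot be told apart.

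On the arrays, 33975 probes of 14940 named genes and of unnamed transcripts were tested, 35022 to 36366 probes per WT array and 33113 to 35617 per KO array were well above background, and 0 spots were saturated. Lpcat1 itself lay at -0.42, -0.39, -0.43 and -0.38 in WT and at -0.88, -0.92, -0.90 and -0.78 in KO. The genotypes did not overlap at this probe, with a difference of -0.46 (SE 0.04, limma adjusted p = 0.0036). Whether the probe lies inside the deleted part was not settled. All 19 rod markers passed the detection filter (median level 6.76), so markers that define the labelled tissue were present.

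To show what the promoters of these genes look like, windows of 300 bases from 250 before to 50 after the start site were taken from RefSeq (GRCm38.p6), which held 69 of the 78 genes. Mrps24, Mrps17 and Mrpl11 are shown because they had adjusted p-values under 0.05, Mrpl3 because it is described below with a match to an ETS motif, and Mrpl32 because it carries NRF1 and YY1 motifs. Capitals mark the letters CCGGAAGT (bound by ETS factors such as GABP), CGCATGCG (the core bound by NRF1, which reads the same on both strands) and AAGATGGC (bound by YY1), searched on both strands. None of these motifs contains another. The windows are chr11:5707652-5707951 on the minus strand, chr5:129715247-129715546 on the plus strand, chr19:4962056-4962355 on the plus strand, chr9:105053018-105053317 on the plus strand and chr13:14612988-14613287 on the minus strand, each written 5′ to 3′ in the direction of its gene.
Mrps24: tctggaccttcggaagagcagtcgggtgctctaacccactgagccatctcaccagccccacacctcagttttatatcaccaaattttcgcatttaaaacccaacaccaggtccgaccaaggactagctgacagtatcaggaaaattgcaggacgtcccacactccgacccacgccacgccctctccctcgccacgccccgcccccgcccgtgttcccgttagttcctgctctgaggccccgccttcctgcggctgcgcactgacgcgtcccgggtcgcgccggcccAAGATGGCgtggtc
Mrps17: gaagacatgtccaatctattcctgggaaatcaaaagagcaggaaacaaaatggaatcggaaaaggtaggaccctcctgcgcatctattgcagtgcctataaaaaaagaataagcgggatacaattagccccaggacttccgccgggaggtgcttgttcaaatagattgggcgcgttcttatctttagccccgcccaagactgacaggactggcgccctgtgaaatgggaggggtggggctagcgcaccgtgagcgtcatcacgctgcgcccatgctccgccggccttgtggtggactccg
Mrpl11: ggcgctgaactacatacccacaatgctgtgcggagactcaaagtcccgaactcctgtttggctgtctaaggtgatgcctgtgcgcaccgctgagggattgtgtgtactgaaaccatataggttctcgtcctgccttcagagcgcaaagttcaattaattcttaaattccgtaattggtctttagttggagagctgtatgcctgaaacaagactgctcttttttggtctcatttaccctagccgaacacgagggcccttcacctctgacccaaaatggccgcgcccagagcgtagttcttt
Mrpl3: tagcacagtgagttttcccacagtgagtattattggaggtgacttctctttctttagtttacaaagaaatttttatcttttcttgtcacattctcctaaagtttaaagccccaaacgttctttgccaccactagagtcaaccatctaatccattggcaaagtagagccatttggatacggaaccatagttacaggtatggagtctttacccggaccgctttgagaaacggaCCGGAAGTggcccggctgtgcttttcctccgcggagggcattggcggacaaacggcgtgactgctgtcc
Mrpl32: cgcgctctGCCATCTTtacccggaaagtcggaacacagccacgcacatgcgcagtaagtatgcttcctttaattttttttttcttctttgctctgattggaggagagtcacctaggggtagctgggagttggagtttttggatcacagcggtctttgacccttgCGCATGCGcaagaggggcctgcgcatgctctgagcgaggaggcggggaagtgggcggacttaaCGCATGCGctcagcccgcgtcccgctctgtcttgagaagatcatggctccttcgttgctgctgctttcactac

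These 3 motifs were more frequent before these genes than before genes at large. The ETS motif was found in 12 of 75 windows (16%) and in 5.15% of the 21263 windows of all protein-coding genes. The NRF1 core stood in 7 windows (9.33%) against 2.52%, and the YY1 motif in 12 windows (16%) against 3.05%. The letters TATAAA, also searched on both strands, were less frequent, in 5 windows (6.67%) against 12.6%. NRF1 and GABP are known as regulators of nuclear genes for mitochondrial proteins. Mrps17 and Mrpl11 held none of the 3 motifs within their windows, Mrps24 held the YY1 motif just after its start, and Mrpl32 held the NRF1 core 2 times. A match is only a run of letters, and binding was not measured here. The 12 tested genes with an ETS match had a median difference of -0.067 and the 56 without one -0.071. With and without a YY1 match the medians were -0.069 and -0.070, and with and without an NRF1 match, over 7 and 61 genes, -0.021 and -0.072.

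Transcripts of the mitochondrial ribosome were slightly lower in KO as a group, and no single gene changed by the study's criteria. With calls made at a limma adjusted p below 0.05 together with a change of more than 1.2-fold, 0 of 77 tested genes were called higher and 0 lower, where 1.99% of all tested genes were called higher and 1.49% lower. No member differed by 1.2-fold in either direction, which is 0.263 on the log2 scale. The differences ran from -0.21 to 0.20, and 64 of the 77 genes (83.1%) lay below 0, beside 57.8% of all tested genes. The median difference of the members was -0.067, which is a KO signal at 95.5% of WT, and the median over all tested genes was -0.023. The size depended on the scaling: the members' median was -0.036 with cyclic loess and -0.039 with quantile normalization, where all tested genes had medians of 0.010 and 0.002. Of the members, 25 had an unadjusted p under 0.05 in limma, and all 25 were lower in KO. Over all tested genes, 15.3% were lower and 10.9% higher at this level. The standard error of a member's difference was 0.033 to 0.094 with a median of 0.044.

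**Figure D1:**
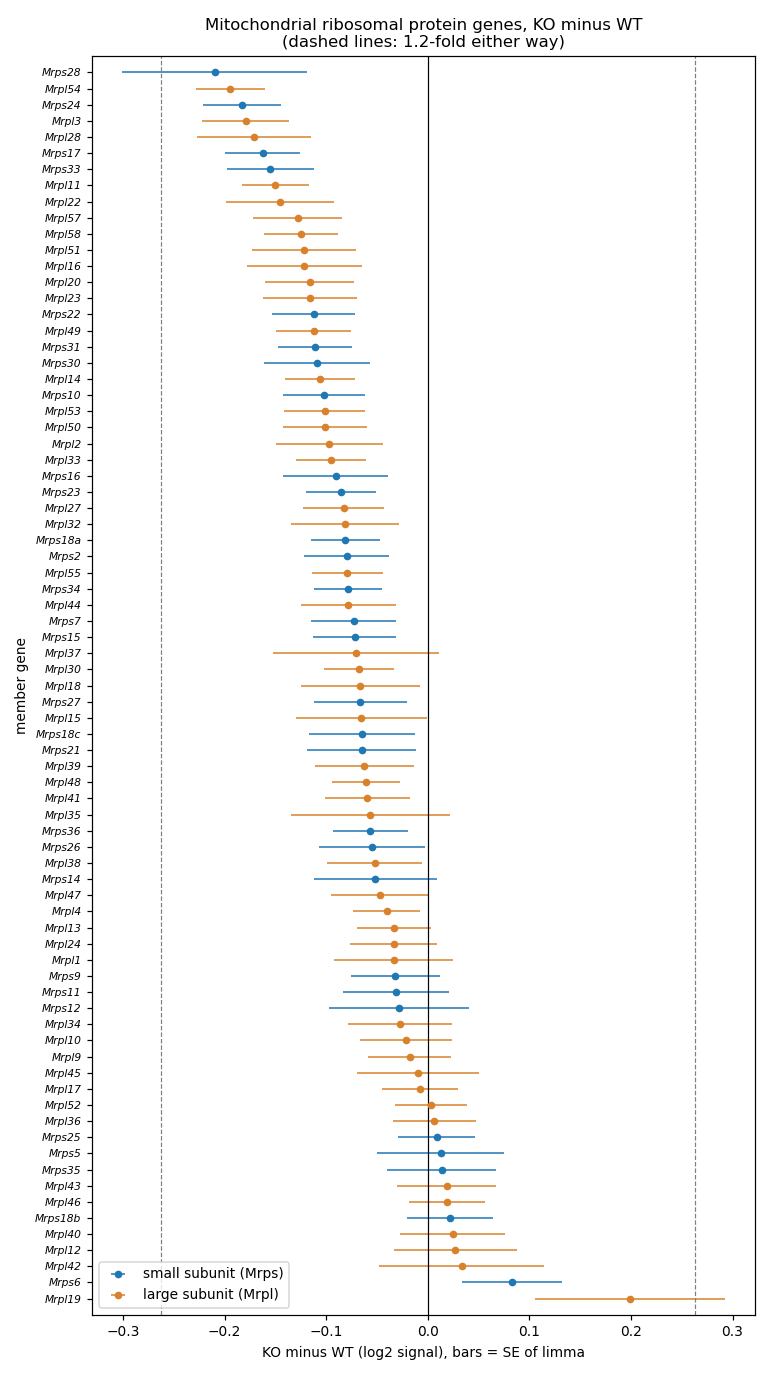
KO minus WT difference (log2 signal, x axis) of each of the 77 tested mitochondrial ribosomal protein genes (y axis, sorted), with small subunit genes in blue and large subunit genes in orange. Bars are the standard error of limma and dashed lines mark a 1.2-fold difference, and 64 of 77 points lie left of 0 with none beyond a dashed line.

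A looser criterion picked out 4 members. With an adjusted p under 0.05 and no minimum fold change, 4 of 77 genes were lower and 0 higher, where 3.32% of all tested genes were lower, so the members' share was not far from that of genes at large. The 4 genes were Mrpl54, Mrps24, Mrpl11 and Mrps17. The count depended on the arrays and on the settings. It was 3 without KO replicate 1 and 0 without any single one of the other arrays (WT replicates 1, 2, 3 and 4 and KO replicates 2, 3 and 4). It was also 0 with a median shift, with no filter on dim probes and with a replicate block, 1 with quantile normalization and with cyclic loess, and 11 with trend and robust eBayes. The share of all tested genes is given for the main fit only. Over the 23 alternatives, Mrpl54 had an adjusted p under 0.05 in 13, Mrps24 in 9, and Mrpl11 and Mrps17 in 7 each. These tallies include the alternatives that changed only the fold change limit (no minimum and 1.5-fold), which keep the adjusted p of the main fit. By contrast, in 23 members (29.9%) the 4 KO samples were all lower than the lowest WT sample, where this held for 12.4% of all tested genes, and in 0 members the KO samples were all higher than the highest WT sample, where 8.78% of all tested genes showed this.

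Mrpl54, a large subunit protein found in mitochondrial but not bacterial ribosomes, had the lowest adjusted p of these. Its level was 3.56, 3.59, 3.58 and 3.57 in the WT samples and 3.41, 3.38, 3.39 and 3.34 in the KO samples. All KO samples lay below all WT samples, and the gap between the groups exceeded the range within either. The difference was -0.19 (SE 0.03, limma adjusted p = 0.0226), a KO signal at 87.4% of WT.

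Mrpl11 belongs to the base of the large subunit's stalk, where the translation factors dock. Its level was 4.60, 4.57, 4.59 and 4.62 in WT and 4.44, 4.42, 4.47 and 4.45 in KO. The groups were again apart, with a difference of -0.15 (SE 0.03, limma adjusted p = 0.042). The difference was -0.09 with quantile normalization and -0.10 with cyclic loess (limma adjusted p = 0.142 and 0.129). Mrpl11 was named after its values were seen.

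Mrps24 and Mrps17 are small subunit proteins with bacterial counterparts. Mrps24 lay at 2.16, 2.14, 2.20 and 2.22 in WT and at 2.04, 2.00, 2.02 and 1.94 in KO. The groups did not overlap, and the difference was -0.18 (SE 0.04, limma adjusted p = 0.0385). Mrps17 lay at 3.01, 3.02, 3.07 and 3.05 in WT and at 2.91, 2.89, 2.88 and 2.82 in KO, again without overlap (difference -0.16, SE 0.04, limma adjusted p = 0.0457). A second, dimmer Mrps17 probe gave -0.12.

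Several members with differences of like size did not reach an adjusted p of 0.05. Mrps28 had the lowest difference of any member (-0.21, SE 0.09) but an adjusted p of 0.209 in limma. Its WT samples lay at 2.69, 2.77, 2.82 and 2.65 and its KO samples at 2.61, 2.25, 2.64 and 2.60, so that KO replicate 2 stood apart and the 3 others lay just under the WT range. Without KO replicate 2 the difference was -0.12. Mrpl3, a large subunit protein near the site of peptide bond formation, lay at 2.70, 2.70, 2.70 and 2.73 in WT and at 2.60, 2.47, 2.57 and 2.47 in KO. All KO samples were below the WT samples, with a difference of -0.18 (SE 0.04) and a limma adjusted p of 0.051. Mrpl28, a large subunit protein with a bacterial counterpart, lay at 2.21, 2.28, 2.30 and 2.31 in WT and at 1.98, 2.08, 2.21 and 2.16 in KO. KO replicate 3 lay only just under WT replicate 1, and the difference was -0.17 (SE 0.06, limma adjusted p = 0.112).

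**Figure D2:**
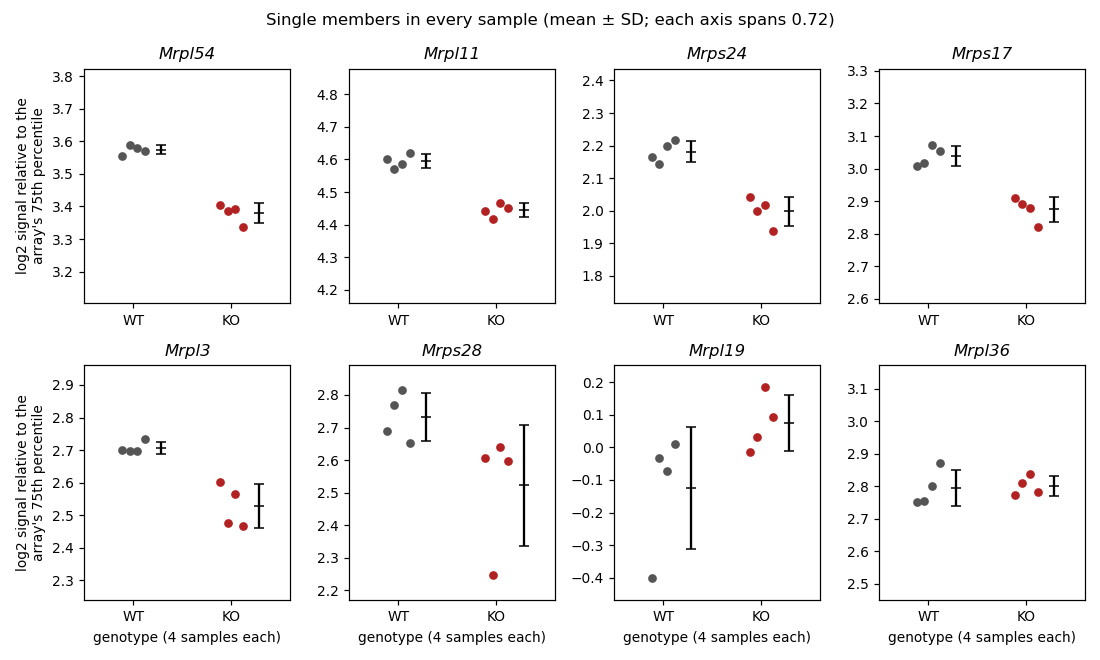
Level of 8 single members (log2 signal relative to the array's 75th percentile, y axis, every axis spanning the same range) in the 4 WT (grey) and 4 KO (red) samples, with the mean ± SD beside the points. Mrpl54, Mrpl11, Mrps24, Mrps17 and Mrpl3 do not overlap between genotypes, 1 KO sample of Mrps28 and 1 WT sample of Mrpl19 stand apart, and the Mrpl36 groups coincide.

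Of the 6 members chosen for their roles, Mrpl3 is given above and the other 5 follow. Mrps12 forms part of the decoding centre of the small subunit. It lay at 3.61, 3.80, 3.83 and 3.80 in WT and at 3.59, 3.76, 3.75 and 3.83 in KO, so the groups overlapped (difference -0.03, SE 0.07, limma adjusted p = 0.839). Under quantile normalization and cyclic loess this difference was 0.01 and 0.02. Mrpl12, the stalk protein that also binds the mitochondrial RNA polymerase, lay at 3.09, 3.05, 3.19 and 3.22 in WT and at 3.05, 3.27, 3.16 and 3.17 in KO. These ranges overlapped as well (difference 0.03, SE 0.06, limma adjusted p = 0.822). Mrpl58, a peptidyl-tRNA hydrolase that became a ribosomal subunit, lay at 4.11, 4.18, 4.16 and 4.20 in WT and at 4.00, 4.03, 4.05 and 4.07 in KO. Here the groups did not overlap, but the difference of -0.12 (SE 0.04) had a limma adjusted p of 0.0859. With cyclic loess the difference was -0.08. Mrps2 and Mrps7, small subunit proteins whose loss is known to cause mitochondrial disease, differed by -0.08 (SE 0.04) and -0.07 (SE 0.04), with limma adjusted p-values of 0.297 and 0.337 and overlapping groups. The Mrps7 difference was -0.04 without WT replicate 4, -0.04 with quantile normalization, -0.03 with cyclic loess and -0.03 as the mean of its probes, and the mean of both Mrps2 probes gave -0.02.

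Of the 13 members above 0, Mrpl19 and Mrps6 had the highest differences, and none had an adjusted p under 0.05. Mrpl19, a large subunit protein with a bacterial counterpart, lay at -0.40, -0.03, -0.07 and 0.01 in WT and at -0.01, 0.03, 0.19 and 0.09 in KO. WT replicate 1 was the lowest sample and the groups overlapped (difference 0.20, SE 0.09, limma adjusted p = 0.245). Without that sample the difference was 0.11. Mrps6, a small subunit protein with a bacterial counterpart, lay at 2.72, 2.85, 2.82 and 2.84 in WT and at 2.79, 2.92, 2.89 and 2.95 in KO, with overlap (difference 0.08, SE 0.05, limma adjusted p = 0.351). Without WT replicate 1 this difference was 0.05. Mrpl42, Mrpl12 (given above), Mrpl40 and Mrps18b followed with differences of 0.03, 0.03, 0.02 and 0.02, each smaller than its standard error.

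Mrpl36 is the neighbour of Lpcat1 on chromosome 13, with no protein-coding gene between them in the RefSeq order of genes. It lies in the large subunit and has a bacterial counterpart. It lay at 2.75, 2.76, 2.80 and 2.87 in WT and at 2.77, 2.81, 2.84 and 2.78 in KO. The groups coincided, with a difference of 0.01 (SE 0.04, limma adjusted p = 0.940). The 4 other members of chromosome 13 (Mrpl32, Mrps27, Mrps36 and Mrps30) lay between -0.11 and -0.06, with limma adjusted p-values of 0.248 to 0.421. Mrpl21 could not be tested, because its signal cleared the background limit on 1 of the WT arrays and on 0 of the KO arrays.

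The shift was of like size in both subunits. The 29 small subunit genes had a median difference of -0.072, with 24 below 0 and 10 lower without overlap. The 48 tested large subunit genes had a median of -0.066, with 40 below 0 and 13 lower without overlap. Over all tested genes, 57.8% lay below 0 and 12.4% were lower without overlap. The medians differed by -0.0059, which is less than the spread between samples of one genotype in the small minus large difference of mean levels (SD 0.0145). Mrps30 and Mrps18a carry small subunit names but sit in the large subunit, and with both moved the medians were -0.067 in each subunit. The 45 members with a bacterial counterpart and the 31 without one, with Mrps36 in neither group because it is now also assigned to the oxoglutarate dehydrogenase complex, had medians of -0.067 and -0.071. Below 0 lay 40 of the 45 and 23 of the 31.

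On single arrays the members moved together by small amounts. The median deviation of the 77 genes from their own 8-array means was 0.002, 0.032, 0.053 and 0.068 on the WT arrays and -0.045, -0.034, -0.010 and -0.047 on the KO arrays. WT replicate 1 was nearest to KO, and KO replicate 3 nearest to WT. The medians over all members did not overlap between genotypes, nor did those of the small subunit, whereas those of the large subunit did (-0.020 on WT replicate 1 and -0.013 on KO replicate 3). Above their own mean were 40, 58, 66 and 69 members on the WT arrays and 20, 23, 31 and 19 on the KO arrays. Over all tested genes the same median deviation was -0.004, 0.012, 0.012 and 0.021 in WT and -0.015, -0.016, 0.001 and -0.003 in KO, so the whole set of genes moved a little in the same direction and overlapped between genotypes. The mean level of the members was 2.59 ± 0.03 in WT and 2.52 ± 0.02 in KO (SD, n = 4 each), from 2.54 to 2.62 in WT and from 2.50 to 2.55 in KO, so these means overlapped.

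**Figure D3:**
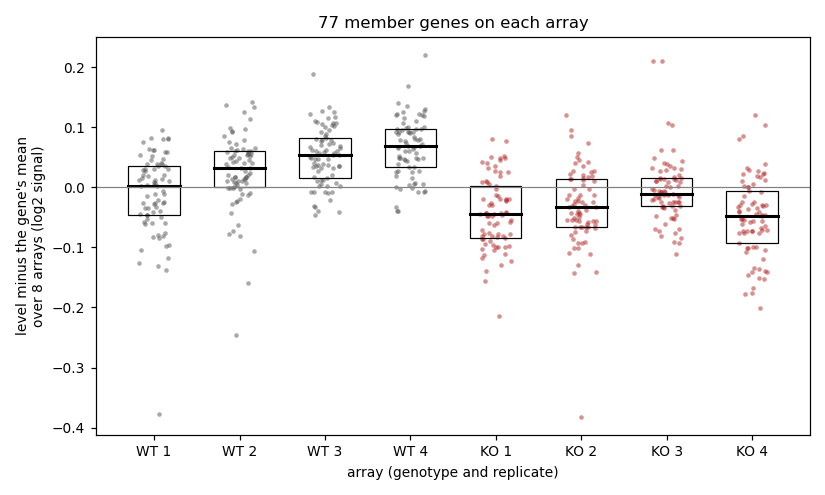
Deviation of each of the 77 member genes from its own mean over 8 arrays (log2 signal, y axis) on every array (x axis), WT in grey and KO in red, with boxes for the quartiles and thick lines for the median. The medians run from 0.002 to 0.068 on the WT arrays and from -0.047 to -0.010 on the KO arrays.

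The members were then set against genes of like brightness. In the range of mean level that the members span, 11654 tested genes had a median difference of -0.019 and 57.1% lay below 0. All tested genes were then divided by mean level into 5 bins of nearly equal size. In the brightest bin, 36 members had a median of -0.081 and the 2952 others -0.041. In that bin, 31 members (86.1%) and 67.1% of the others lay below 0, and 15 members (41.7%) and 22.7% of the others were lower without overlap. In the next bin down, 29 members had a median of -0.065 and the others -0.023, with 8 members (27.6%) and 14.9% of the others lower without overlap. In the middle bin, 10 members had a median of -0.042 and the others -0.012, and 0 members were lower without overlap beside 11.3% of the others. The 2 dim bins held 1 member each, and the others had medians of -0.001 and, in the dimmest bin, -0.027. Across the 77 members, which share the same 8 arrays, mean level and difference had a Spearman correlation of -0.34, beside -0.06 across all tested genes.

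**Figure D4:**
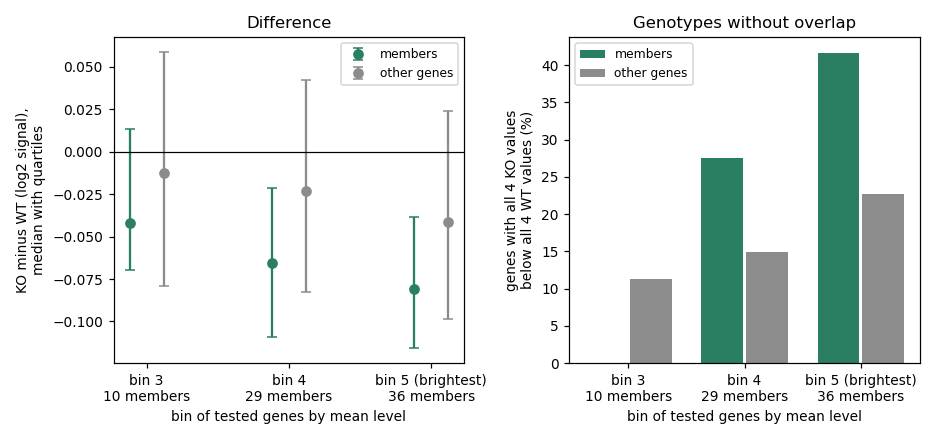
Members (green) and other tested genes (grey) in the 3 upper bins of mean level (x axis, bin 5 the brightest). The left panel plots the median KO minus WT difference with its quartiles (log2 signal) and the right panel the share of genes with all 4 KO values below all 4 WT values, which was 41.7% of members and 22.7% of others in the brightest bin.

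For 21 members a pair of probes passed the filter. In 15 of them both probes pointed the same way, and in 6 (Mrpl15, Mrpl43, Mrps18b, Mrps2, Mrps25 and Mrps7) they did not, in each case with no unadjusted p under 0.05. Mrps33, a small subunit protein without bacterial counterpart, gave -0.15 and -0.21 from its 2 probes, and Mrpl22 gave -0.15 and -0.12.

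Many of these genes start back to back with another gene. Within 1000 bases, 24 of the 69 members with a promoter window (34.8%) had a start site of another protein-coding gene on the opposite strand pointing away, beside 8.48% of all genes with a window. One such pair consists of members of the 2 subunits, Mrps11 and Mrpl46, whose starts lie 42 bases apart (differences -0.03 and 0.02). Mrps12 starts 147 bases from Sars2, the mitochondrial seryl-tRNA synthetase, which differed by 0.01 (SE 0.06). Of 22 tested partner entries, which include Mrps11 and Mrpl46 themselves, 15 lay below 0, with a median of -0.042. Over all tested genes 57.8% lay below 0, with a median of -0.023. Cyb5rl, which starts 128 bases from Mrpl37, was singled out after its values were seen. It differed by -0.42 (SE 0.06, limma adjusted p = 0.0131), whereas Mrpl37 differed by -0.07 (SE 0.08, limma adjusted p = 0.641).

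Other parts of the mitochondrial translation machinery had list medians of -0.084 to -0.010. The 5 mitoribosomal proteins with other symbols had a median of -0.029. Aurkaip1, Gadd45gip1, Chchd1, Ptcd3 and Dap3 had differences of -0.04, -0.03, -0.03, -0.00072 and 0.01, with limma adjusted p-values of 0.506 to 0.993, and under quantile normalization and cyclic loess the first 4 lay above 0. Factors that assemble the mitochondrial ribosome had a median of -0.084 (22 tested, 20 below 0, none called and none at an adjusted p under 0.05, 9 lower at an unadjusted p under 0.05, beside the 15.3% of all tested genes). The 14 translation factors had a median of -0.010 with 8 below 0, and Mtif3, an initiation factor, was the only one of them with an adjusted p under 0.05 (difference -0.21, SE 0.04, limma adjusted p = 0.031). The 18 mitochondrial tRNA synthetases had a median of -0.067, and Pars2, the prolyl enzyme, differed by -0.16 (SE 0.04, limma adjusted p = 0.0497). The 16 genes for mitochondrial DNA upkeep, transcription and biogenesis had a median of -0.067 with 12 below 0 and none at an adjusted p under 0.05 (3 at an unadjusted p under 0.05). Mtif3 and Pars2 were named after their values were seen and were not followed under the other settings. Over all tested genes, 3.32% were lower at an adjusted p under 0.05.

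Genes for the cytosolic ribosome and for nuclear-encoded respiratory chain subunits were set beside the members, without a match for brightness although their probes were brighter (median levels 5.85 and 5.04, beside 2.68 for the members). The 83 cytosolic ribosomal protein genes had a median of -0.133, and 82 of them lay below 0. At an adjusted p under 0.05, 15 were lower, beside 3.32% of all tested genes. None of these 15 reached 1.2-fold, so 0 were called. The 92 genes for respiratory chain and ATP synthase subunits had a median of -0.101 and 82 below 0. They were taken by symbol, so the list also holds other genes that share such symbols, among them complex I assembly factors. Of these 92 genes, 1 was called lower, beside 1.49% of all tested genes. This was Ndufa4l2, which is in the list by its symbol (difference -0.43, SE 0.07, limma adjusted p = 0.0223). Its call was lost without WT replicates 2, 3 or 4 or KO replicates 3 or 4 (limma adjusted p = 0.0566 to 0.0708), with no filter on dim probes (0.0761) and with a replicate block (0.0753). It was also lost with a minimum of 1.5-fold. Across these settings the Ndufa4l2 difference was -0.43 to -0.40. In both lists the median depended on the scaling. Under quantile normalization it was -0.053 and -0.031, beside -0.039 for the members and 0.002 for all genes, so that the order of the respiratory chain and the members turned. Under cyclic loess the medians of the cytosolic and respiratory lists were -0.066 and -0.038, beside -0.036 for the members.

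**Figure D5:**
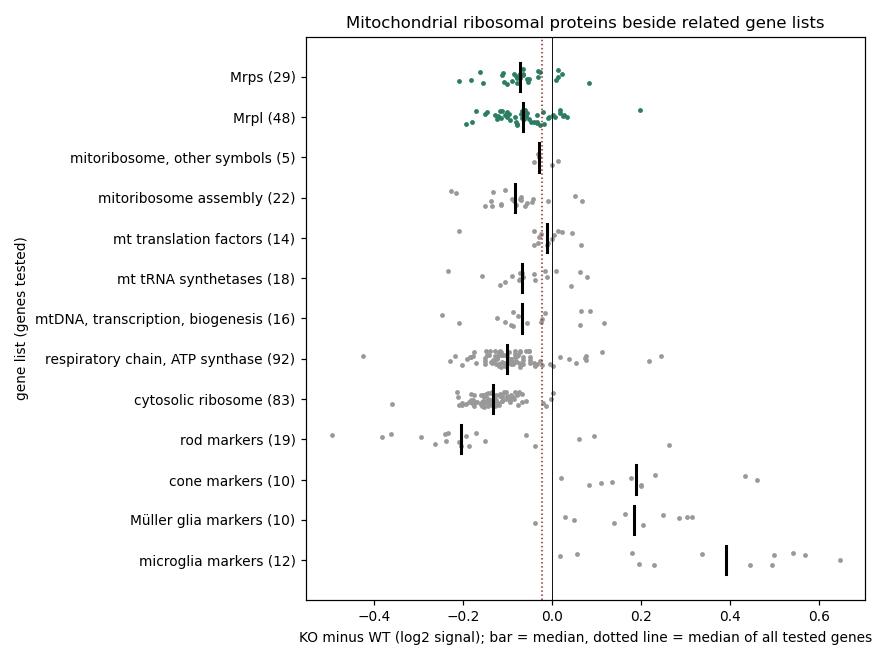
KO minus WT difference (log2 signal, x axis) of each gene in 13 lists (y axis, number of genes tested in brackets), with bars at the medians and a dotted line at the median of all tested genes. The members (green) have medians of -0.072 and -0.066, the cytosolic ribosome -0.133, the rod markers -0.205 and the microglia markers 0.392.

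Markers of retinal cell types moved with genotype beside these shifts. Of 19 rod markers 16 lay below 0 and 4 were called lower (Sag, Gnb1, Rdh12 and Nr2e3), where 1.49% of all tested genes were called lower. The 3 others lay above 0, the highest at 0.26. In 15 rod markers all KO samples lay below all WT samples and in 1 all lay above, beside 12.4% and 8.78% of all tested genes. The summed signal of the rod markers, in multiples of the 75th percentile, was 3069 to 3201 in WT and 2616 to 2790.0 in KO. All 10 cone markers lay above 0 with 2 called higher (Arr3 and Opn1sw), where 1.99% of all tested genes were called higher. The sum of the cone markers was 256 to 261 in WT and 284 to 295 in KO. Of 10 Müller glia markers 9 lay above 0 with 3 called higher (Apoe, Clu and Kcnj10), with sums of 343 to 361 and 409 to 418. All 12 microglia markers lay above 0 with 7 called higher, with overlapping sums of 33.8 to 41.2 and 38.1 to 44.2. Markers of bipolar, amacrine and horizontal, and ganglion cells had medians of 0.049, 0.081 and 0.035, and those of pigment epithelium, lens and blood had medians of 0.069, -0.086 and 0.084, with 0 called in these 6 lists. Best1 of the pigment epithelium list, Lim2 and Mip of the lens list and Hbb-b1 of the blood list did not pass the filter or had no named probe. The part of these marker shifts in the values of the mitochondrial ribosome was not tested.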

How the data were processed

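Retinal RNA of 4 WT and 4 KO samples, with groups and replicate numbers taken from the titles, was labelled with Cy3 for 1-colour arrays. The scanner files that the authors deposited come from Feature Extraction 10.7.1.1. Per the file headers, their intensity columns are linear, background-subtracted and not scaled between arrays. The deposited log2 table of the series was made by the authors with a 75th percentile shift in GeneSpring. Its values exceed the levels computed here by a constant of 0.12 to 0.15 per array, whose origin is not stated, and served as an alternative. The number of per-sample columns left out was 0.

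For each array, the 75th percentile of log2 processed signal over the 59305 spots that are not controls was subtracted from its log2 values. Control spots (3671) and flagged spots (86 to 147 per array) were left out. A probe was tested if every array of WT or every array of KO had it well above background. A RefSeq table of transcript accessions named 26413 of 55681 probes (47.4%). Its assembly (GRCm38.p6) is not the array's design build (mm9), so that table gave only names and gene order. The genotype effect was fitted in limma 3.58.1 (R 4.3.3) with lmFit and eBayes and no covariate, and p-values were adjusted by Benjamini-Hochberg over every tested probe. Calls needed an adjusted p below 0.05 with more than 1.2-fold change. Lists are given as counts and medians without a list test. Cytosolic ribosomal proteins were taken by symbol, without pseudogenes and Rps6k kinases. Of the cell type markers fixed for the lists, 2 (neither of the cone nor of the microglia list) are not reported here. Alternatives covered other normalizations, normexp (offset 50) on median signals, filters on dim probes, the probe of a gene, thresholds, the methods' t-test, robust eBayes, a replicate block, the authors' values and each array left out.

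The members and lists were chosen with earlier results of these data known. Named were called members, the 6 largest increases and decreases, members with probes of opposite sign, members not tested, members within 10 genes of Lpcat1, 6 members chosen for their roles (Mrps2, Mrps7, Mrps12, Mrpl3, Mrpl12 and Mrpl58), called genes of each list (at most 5), the 5 mitoribosomal proteins with other symbols, and Lpcat1. Genes named beyond this rule are marked as such in the text, with some exceptions. These are examples given for a pair of probes or starts, sequences shown for a motif and the other members of chromosome 13. Also excepted are members whose place differs from their symbol (Mrps18a, Mrps30 and Mrps36) and list genes that were not tested.

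The fit was tested on simulated data built from 33953 probes of these arrays, with 50 of them changed at each size. In this simulated KO against WT contrast it called 0 of 50 probes changed by 0.1, 11 of 50 changed by 0.3, 26 of 50 changed by 0.5 and 48 of 50 changed by 1 on the log2 scale, with 1 false call. Calls here also needed more than 1.2-fold change (0.263 on the log2 scale). The 0 of 50 at 0.1 was thus largely set by that limit and does not measure the precision for such small changes. The noise was drawn separately for each probe, without shifts shared across an array. Precision is limited by having 4 arrays in each genotype.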

Additional observations from a re-analysis of the deposited data

Results flagged for a closer look

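Each group of 4 values of the named genes and of the members' mean and median level was searched for 1 sample far from the other 3 by Dixon's ratio, the gap to the nearest sample divided by the whole range. Of 54 groups searched, 6 passed the critical value for 4 samples, and chance alone gives about 1 in 20. The ratio was 0.840 for Mrpl42 in WT, where replicate 2 lay at 0.58 and the others at 0.86 to 0.91. It was 0.891 for Mrps28 in KO, where replicate 2 lay at 2.25 and the others at 2.60 to 2.64, and 0.927 for Mrpl3 in WT, where replicate 4 lay at 2.73 and the others at 2.70. For Mrps12 in WT it was 0.869, with replicate 1 at 3.61 and the others at 3.80 to 3.83. For Aurkaip1 in WT it was 0.886, with replicate 3 at 5.21 and the others at 5.26 to 5.27, and for Gadd45gip1 in WT 0.841, with replicate 3 at 3.04 and the others at 2.97 to 2.98.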

How the results depend on the processing

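In the 23 alternatives run, 0 members were called higher, and 0 were called lower except with no minimum fold change, which gave 4. The members' median difference stayed below 0 in every alternative run on it. It was -0.061 to -0.081 with each array left out, -0.036 with cyclic loess, -0.039 with quantile normalization and -0.055 in the authors' values. The count of members below 0 was 54 to 71. The small minus large difference of medians was -0.015 to 0.0047 with each array left out. The count lower at an adjusted p under 0.05, examined under other settings only after seeing the data, was 4 as reported and 0 to 3 with each array left out. It was 1 each with quantile normalization, cyclic loess, normexp on median signals and the percentile of detected probes, 0 with a median shift or no filter, 2 in the authors' values, 10 with the methods' t-test and 11 with trend and robust eBayes. With replicate number as a replicate block it was 0, and 0 members were called in either direction. The share of all tested genes at this level is given for the main fit only, so these counts are not set against genes at large. Samples sharing a number had correlated deviations of 0.249, 0.069, 0.037 and 0.112, so the numbers were not taken as pairs.

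Signs turned for these differences close to 0. With quantile normalization and cyclic loess, Aurkaip1 was 0.028 and 0.020, Chchd1 0.0027 and 0.020, Gadd45gip1 0.0051 and 0.0041, Mrps12 0.014 and 0.017, and Ptcd3 0.039 and 0.038. Ptcd3 was also 0.016 with a median shift, 0.019 with the percentile of detected probes and 0.011 in the authors' values. Gadd45gip1 was 0.23 as the mean of its probes, and Mrps18b -0.014 with normexp. With each array left out, the ranges were -0.0065 to 0.046 for Dap3, -0.0087 to 0.064 for Mrpl12, -0.0077 to 0.032 for Mrpl36, -0.0042 to 0.059 for Mrpl40, -0.043 to 0.072 for Mrpl42, -0.078 to 0.019 for Mrps12, -0.0020 to 0.035 for Mrps18b and -0.019 to 0.013 for Ptcd3. The cause of these changes was not tested.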
